A study of Mus musculus with 6 samples.

Results

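The genes of the insulin-like growth factor (IGF) system were described in newborn mouse calvaria, the roof of the skull. They were taken by name: the ligand genes Igf1 and Igf2, the receptor genes Igf1r and Igf2r, and the binding protein genes Igfbp2, Igfbp3, Igfbp4, Igfbp5, Igfbp6 and Igfbp7. All 10 were present among the 24346 gene names of the files. All 10 also had a mean of at least 1 FPKM, the minimum for testing. FPKM stands for fragments per kilobase of transcript, scaled for the size of the library. The 6 libraries were 3 controls (Pth1rfl/fl, floxed alleles of the parathyroid hormone 1 receptor gene) and 3 labelled mutant (Prx1-Cre;Pth1rfl/fl), so both groups carry the floxed alleles and they differ by the Cre transgene. The Prx1 promoter is known to be active in mesenchyme of the limbs and skull, so cells of other origin would keep the alleles. The tissue came from newborns and included the interparietal and occipital bones, without cartilage of the ears. The labels do not say whether a library holds 1 animal or several, and p-values measure only the spread between these libraries.

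IGF1 and IGF2 are small secreted growth factors that act through the receptor tyrosine kinase IGF1R to promote growth and survival of bone and cartilage cells. IGF2R, which is also the cation-independent mannose 6-phosphate receptor, carries IGF2 to lysosomes for degradation and does not pass on its growth signal. IGF binding proteins hold most IGF outside cells, and proteases that cut them release it. Parathyroid hormone, which acts through the receptor encoded by Pth1r, is known to raise IGF1 production in bone-forming cells.

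The floxed gene went against the labels. Pth1r had 89.2, 93.3 and 102 FPKM in controls 1 to 3, against 127, 125 and 142 FPKM in libraries 1 to 3 labelled mutant, none of which overlapped the controls (limma with Benjamini-Hochberg adjustment, adjusted p = 0.065; two-sided exact permutation test, p = 0.1, the smallest that 3 against 3 allow). The FPKM covers the whole gene, and the labels do not give the part between the loxP sites, so lost exons cannot be read from it. Pth1r also overlaps the muscle gene Myl3 on the other strand. Directions are therefore given by label. The bone collagen gene Col1a1 had between 9427 and 13131 FPKM, and the 14 cartilage markers, which were all detected, summed to between 707 and 2500 FPKM. Muscle was present too, with Acta1 at 3994 to 7812 FPKM. Control 2 alone held the inner ear gene Oc90 at 56.6 FPKM, against 1.002 or less elsewhere. Xist marked 2 controls (1 and 3) and library 1 labelled mutant, and Y-linked genes the other 3 libraries.

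No gene of the system passed the threshold between the groups (adjusted p under 0.05 over 13180 tested genes, limma with Benjamini-Hochberg adjustment). The count was 0 of 10, beside 0.607% of all tested genes, and the adjusted p of the 10 ran from 0.17 to 0.978. At an unadjusted p under 0.05 there were 5 of 10, Igf2r, Igfbp2, Igfbp4, Igfbp5 and Igfbp7, beside 10.5% of all tested genes. The same 5 had groups whose ranges did not overlap, beside 16.1% of all tested genes. Of these, Igfbp5, Igfbp7 and Igf2r were above the controls in every library labelled mutant (3 of 10, beside 9.34% of tested genes) and Igfbp2 and Igfbp4 below them (2 of 10, beside 6.79%). The median log2 difference of the 10 was -0.045, and that of all tested genes was 0.0015. Because the tissue was taken whole, fewer cells of a type and less RNA per cell cannot be told apart in any of these values.

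**Figure D1:**
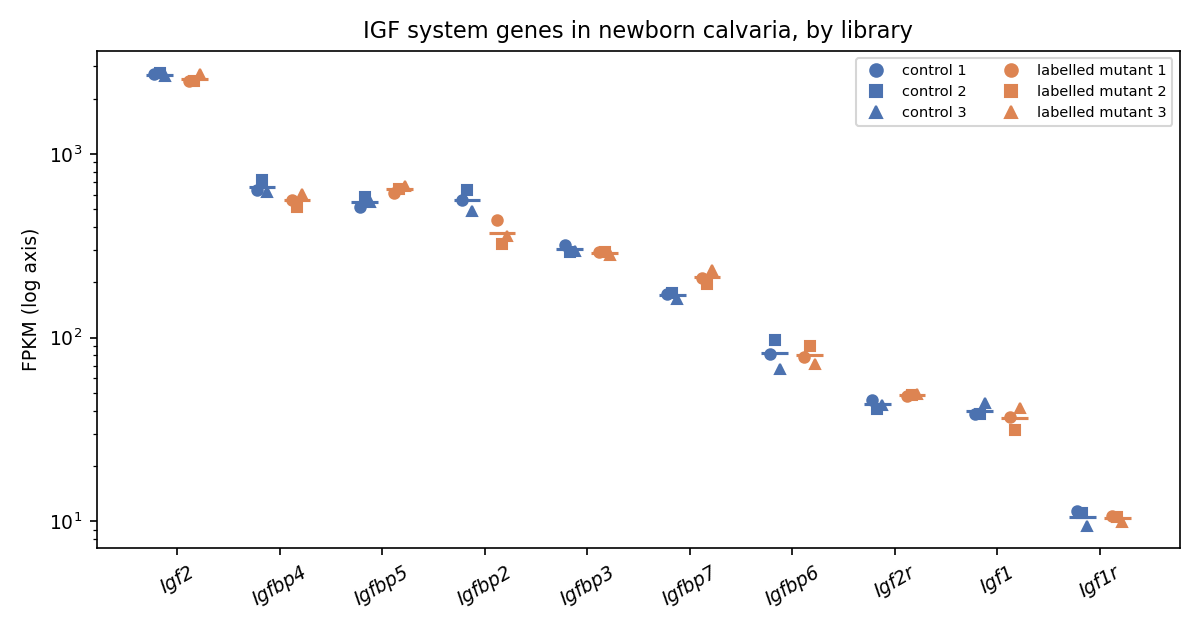
FPKM (log axis) of the 10 genes in each of the 6 libraries, ordered by mean, with controls in blue, libraries labelled mutant in orange and horizontal lines at the group means. Igf2 lies above all others at 2482 to 2747 FPKM, and Igf1r lies lowest at 9.43 to 11.3 FPKM.

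Levels spanned a wide range, and FPKM is scaled to transcript length, so they can be set against each other. Igf2, the main IGF of fetal growth, ranked 17th of the 24346 names by mean FPKM over the 6 libraries. In controls the order by mean FPKM was Igf2, Igfbp4, Igfbp2, Igfbp5, Igfbp3, Igfbp7, Igfbp6, Igf2r, Igf1 and Igf1r. Within that order the ranges of Igfbp4 and Igfbp2, of Igfbp2 and Igfbp5, and of Igf2r and Igf1 overlapped, while the other neighbours were apart. In the libraries labelled mutant Igfbp5 took the second place and Igfbp2 the fourth, the rest kept their order, and no 2 neighbours overlapped. On GRCm38, Igf1 lies on chromosome 10 (87858265 to 87937042, plus strand) and Igf1r on chromosome 7 (67952827 to 68233668, plus strand). Igfbp3 (7206086 to 7213923, minus strand) and Igfbp4 (99041244 to 99054392, plus strand) are both on chromosome 11, and Igfbp6 is on chromosome 15 (102144362 to 102149511, plus strand).

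Of the ligands, Igf2 had 2727, 2747 and 2642 FPKM in controls, against 2482, 2488 and 2712 FPKM in libraries labelled mutant. The groups overlapped, since library 3 labelled mutant lay within the control range. As a percent of all summed FPKM of its library, Igf2 took 0.501, 0.527 and 0.505 in controls. It took 0.454, 0.445 and 0.499 in libraries labelled mutant, narrowly without overlap. The means were 2705 ± 55.9 and 2561 ± 131 FPKM (SD, n = 3 each), a log2 difference of -0.080 ± 0.076 (SE; 95% interval -0.26 to 0.099; limma with Benjamini-Hochberg adjustment, adjusted p = 0.814). With quantile normalization of the libraries the log2 difference was -0.23 (limma with Benjamini-Hochberg adjustment, adjusted p = 0.417).

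Igf1, the ligand that growth hormone controls in liver and that bone cells also make, was far lower. It had 38.2, 38.1 and 43.7 FPKM in controls, against 37.1, 31.6 and 41.1 FPKM in libraries labelled mutant, and the groups overlapped. The log2 difference was -0.13 ± 0.11 (SE), with a 95% interval from -0.38 to 0.12 (limma with Benjamini-Hochberg adjustment, adjusted p = 0.761). Igf2 exceeded Igf1 by 60.4 to 72.1 times in controls and by 66.0 to 78.9 times in the libraries labelled mutant.

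Igf2 lies on the minus strand of chromosome 7 (142650766 to 142666816, GRCm38), 72622 bases from the noncoding imprinted gene H19 on the same strand. The 2 genes are known to share enhancers and to be expressed from opposite parental alleles. H19 had 9275, 9080 and 8073 FPKM in controls, against 7583, 7734 and 7049 FPKM in libraries labelled mutant. Its groups did not overlap, and its log2 difference of -0.24 ± 0.10 (SE) did not pass (limma with Benjamini-Hochberg adjustment, adjusted p = 0.466). Igf2 also overlaps Igf2os on the other strand, which had 7.84 to 10.2 FPKM. The labels name a stranded kit, with the strand setting of the counting not given in the sources used here. Reads of genes that overlap may therefore be shared.

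Of the receptors, Igf2r had the higher level and separate groups. It had 45.5, 41.0 and 43.1 FPKM in controls, against 47.9, 48.8 and 49.2 FPKM in libraries labelled mutant, all of the latter above all controls. The means were 43.2 ± 2.24 and 48.7 ± 0.65 FPKM (SD, n = 3 each), a ratio of 1.13 and a log2 difference of 0.17 ± 0.058 (SE; limma with Benjamini-Hochberg adjustment, adjusted p = 0.338). Its span on chromosome 17 (12682406 to 12769664, minus strand) overlaps Airn, the antisense noncoding RNA known to silence the paternal copy of Igf2r. Airn had 20.7, 16.5 and 21.8 FPKM in controls, against 20.7, 26.8 and 26.8 FPKM in libraries labelled mutant (limma with Benjamini-Hochberg adjustment, adjusted p = 0.484). The 2 genes share sequence on opposite strands, and their reads may not be fully parted.

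Igf1r, the signalling receptor, had 11.3, 11.03 and 9.43 FPKM in controls, against 10.7, 10.5 and 9.84 FPKM in libraries labelled mutant. The groups overlapped, and the log2 difference was -0.027 with a 95% interval from -0.22 to 0.17, a sign that turned when control 1 was left out (0.019). Igf2r exceeded Igf1r by 3.72 to 4.57 times in controls and by 4.48 to 5.003 times in the libraries labelled mutant, ranges that overlapped.

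Igfbp2 showed the largest difference of the 10. It encodes a binding protein that is abundant in fetal tissues and is known to be made by bone and cartilage cells. It had 562, 635 and 487 FPKM in controls, against 439, 324 and 356 FPKM in libraries labelled mutant. Every library labelled mutant was below every control, with control 3 and library 1 labelled mutant nearest to each other. The means were 561 ± 73.8 and 373 ± 59.3 FPKM (SD, n = 3 each), a ratio of 0.664, and the log2 difference was -0.59 ± 0.14 (SE; 95% interval -0.92 to -0.26), which did not pass (limma with Benjamini-Hochberg adjustment, adjusted p = 0.17). Among the libraries with Xist it had 562 and 487 against 439 FPKM, and among those with Y-linked genes 635 against 324 and 356 FPKM. A fit with a sex term gave a log2 difference of -0.58 (limma with Benjamini-Hochberg adjustment, adjusted p = 0.287).

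Igfbp5, the gene next to Igfbp2, differed the other way. It encodes a binding protein that is abundant in bone and attaches to bone mineral and matrix. It had 514, 579.7 and 547 FPKM in controls, against 616, 645 and 669.9 FPKM in libraries labelled mutant, again without overlap. The means were 547 ± 32.8 and 644 ± 27.2 FPKM (SD, n = 3 each), a ratio of 1.18 and a log2 difference of 0.24 ± 0.071 (SE; 95% interval 0.066 to 0.40; limma with Benjamini-Hochberg adjustment, adjusted p = 0.27). The genes lie tail to tail on chromosome 1 of GRCm38, Igfbp2 on the plus strand (72824503 to 72852474) and Igfbp5 on the minus strand (72857932 to 72874884), with 5457 bases between them. The FPKM of Igfbp2 divided by that of Igfbp5 was 1.09, 1.09 and 0.891 in controls and 0.713, 0.502 and 0.531 in the libraries labelled mutant. The ratio was chosen with these values in view and is a description.

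Igfbp4 and Igfbp7 were the other binding protein genes whose groups were apart. Igfbp4, whose product holds IGF away from its receptor until a pappalysin protease cuts it, had 635, 719 and 618 FPKM in controls, against 565, 516 and 605 FPKM in libraries labelled mutant. The gap between the groups was small, from 618 in control 3 to 605 in library 3 labelled mutant. Its log2 difference was -0.23 ± 0.090 (SE; limma with Benjamini-Hochberg adjustment, adjusted p = 0.435). Igfbp7, a relative with low affinity for IGF that is known from vessel walls, had 172, 175 and 163 FPKM in controls, against 209.8, 196 and 233 FPKM in libraries labelled mutant. The means of Igfbp7 were 170.0 ± 6.28 and 213 ± 18.6 FPKM (SD, n = 3 each), a ratio of 1.25 and a log2 difference of 0.32 ± 0.077 (SE; 95% interval 0.14 to 0.50; limma with Benjamini-Hochberg adjustment, adjusted p = 0.181). Igfbp7 on chromosome 5 (77349240 to 77408041, minus strand) overlaps Polr2b on the other strand. The sum of 10 endothelial markers ran from 286 to 307 FPKM in controls and from 332 to 339 FPKM in the libraries labelled mutant. The sum of 8 markers of pericytes and smooth muscle, the cells of vessel walls, lay the other way, at 282 to 284 FPKM in controls and 253 to 269 FPKM in the libraries labelled mutant. The 2 most abundant of those 8, Acta2 and Tagln, were lower in every library labelled mutant than in any control, at 62.6 to 67.3 against 70.9 to 83.0 FPKM and 56.1 to 64.9 against 69.2 to 78.6 FPKM. No other gene of the 8 had groups apart (2 of 8 below the controls, beside 6.79% of all tested genes). Of the 8, 3 had higher values and 5 lower, and the median log2 difference was -0.022. The part of these cells in the value of Igfbp7 was not tested.

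The 250 bases before the start sites of these 4 binding protein genes are shown because they are the binding protein genes whose groups did not overlap, Igfbp5 and Igfbp7 higher and Igfbp2 and Igfbp4 lower in the libraries labelled mutant. They come from RefSeq on GRCm38.p6, read 5′ to 3′ on each gene's own strand, and capitals mark matches on either strand to a GC box (GGGCGG) or a TATA motif (TATAAA). The windows are chr1:72824230-72824479 on the plus strand for Igfbp2, chr11:99040994-99041243 on the plus strand for Igfbp4, chr1:72874866-72875115 on the minus strand for Igfbp5 and chr5:77408046-77408295 on the minus strand for Igfbp7.
Igfbp2: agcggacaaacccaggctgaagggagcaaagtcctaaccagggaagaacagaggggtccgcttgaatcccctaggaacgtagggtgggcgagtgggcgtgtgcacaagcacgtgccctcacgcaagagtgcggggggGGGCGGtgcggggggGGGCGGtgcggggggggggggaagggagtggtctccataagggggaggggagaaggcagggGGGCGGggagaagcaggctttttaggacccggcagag
Igfbp4: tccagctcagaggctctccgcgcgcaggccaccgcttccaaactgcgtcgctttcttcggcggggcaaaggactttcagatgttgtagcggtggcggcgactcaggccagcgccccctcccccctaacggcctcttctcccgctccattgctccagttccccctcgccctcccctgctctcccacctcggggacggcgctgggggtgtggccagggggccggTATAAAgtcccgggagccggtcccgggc
Igfbp5: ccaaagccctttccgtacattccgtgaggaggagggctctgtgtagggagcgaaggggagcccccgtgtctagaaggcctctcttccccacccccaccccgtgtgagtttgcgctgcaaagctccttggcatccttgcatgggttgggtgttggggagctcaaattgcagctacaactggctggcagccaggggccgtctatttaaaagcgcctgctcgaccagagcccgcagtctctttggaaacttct
Igfbp7: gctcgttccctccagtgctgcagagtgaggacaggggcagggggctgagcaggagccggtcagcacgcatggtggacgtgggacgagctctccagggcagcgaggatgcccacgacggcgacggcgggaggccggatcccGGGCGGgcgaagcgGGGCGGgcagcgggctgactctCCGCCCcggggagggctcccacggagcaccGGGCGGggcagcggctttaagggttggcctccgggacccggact

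The printed window of Igfbp2 held 3 GC boxes and that of Igfbp7 held 4, a motif present in 32.7% of the 32851 promoter windows of this length. Igfbp4 had a TATA motif whose first base lies 28 bases before the start, a motif found in 12.4% of windows, and the Igfbp5 window matched none of the letters searched. All 10 genes had at least 1 window in the table (14 in all, 4 of them for Igf2 and 2 for Igfbp2). None of the 14 held the full cAMP response element TGACGTCA, found in 1.55% of windows, and 2 held its shorter core TGACG, found in 17.8%, 1 of Igf2 and 1 of Igf2r. The FoxO motif TGTTTAC, found in 3.17% of windows, was in 0 of the 14. These matches describe letters in the windows and no binding was measured.

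Igfbp3 and Igfbp6 had overlapping groups. Igfbp3, the main carrier of IGF in the circulation, had 321, 293 and 296.5 FPKM in controls, against 294, 294 and 283 FPKM in libraries labelled mutant. Its log2 difference was -0.063, with a 95% interval from -0.21 to 0.081. Igfbp6, whose product prefers IGF2, had 81.3, 97.0 and 67.7 FPKM in controls, against 78.4, 90.4 and 72.1 FPKM in libraries labelled mutant. Its log2 difference was -0.021, with a 95% interval from -0.35 to 0.31, and its sign turned when control 2 was left out (0.11).

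**Figure D2:**
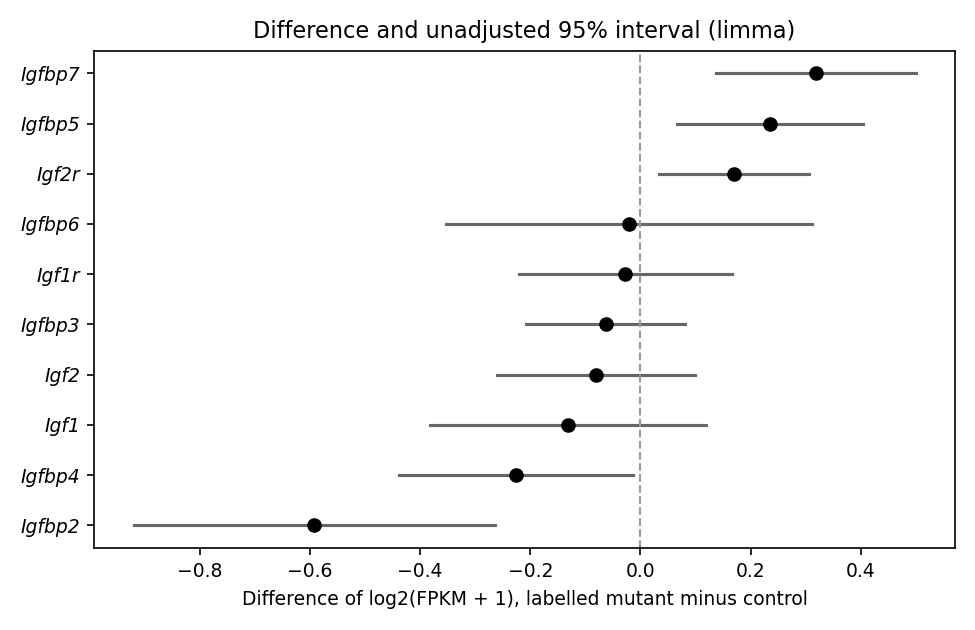
Difference of log2(FPKM + 1) between libraries labelled mutant and controls (points) with unadjusted 95% intervals from limma (lines) for the 10 genes. The intervals of Igfbp7, Igfbp5 and Igf2r lie above 0 and those of Igfbp4 and Igfbp2 below it, while none of the 10 passed after adjustment over all genes.

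The binding protein genes were also set against their own total. The summed FPKM of the 6 binding protein genes was 2285, 2499 and 2179.6 in controls and 2201, 2065 and 2218 in the libraries labelled mutant, and the groups overlapped. Within that sum Igfbp2 took 24.6%, 25.4% and 22.3% in controls and 19.9%, 15.7% and 16.0% in the libraries labelled mutant. Igfbp5 took 22.5%, 23.2% and 25.1% in controls and 28.0%, 31.2% and 30.2% in the libraries labelled mutant. The share of Igfbp4 was 28.3% ± 0.50 and 26.0% ± 1.18 (SD, n = 3 each), and that of Igfbp7 was 7.34% ± 0.28 and 9.83% ± 0.56 (SD, n = 3 each). These 4 shares did not overlap between groups, while those of Igfbp3 and Igfbp6 did. A higher share of 1 gene lowers the others, so the shares are a description of the same values.

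**Figure D3:**
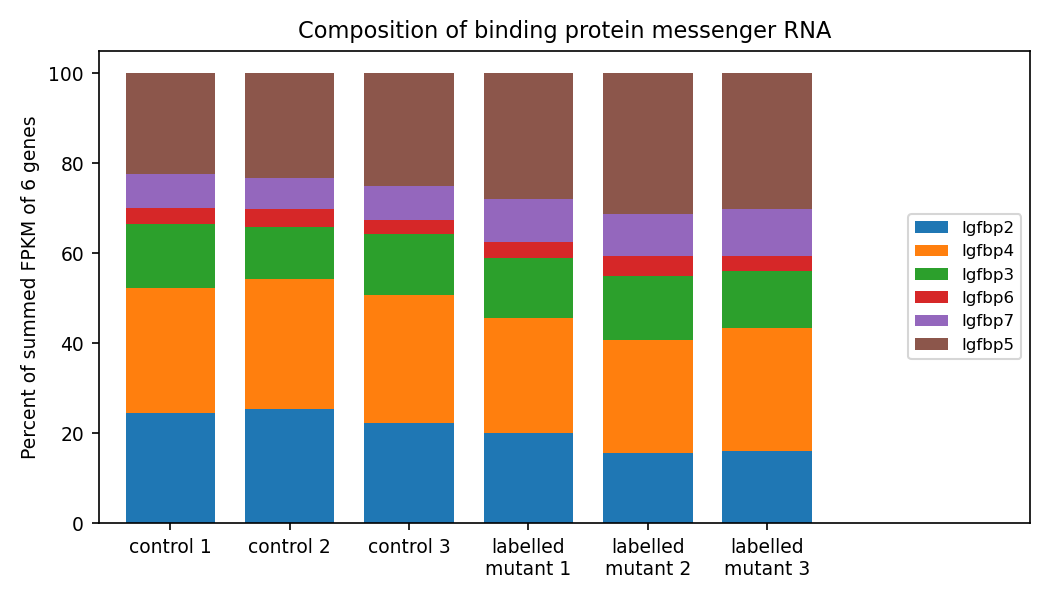
Percent of the summed FPKM of the 6 binding protein genes taken by each, in each library. Igfbp2 takes 22.3% to 25.4% in controls and 15.7% to 19.9% in libraries labelled mutant, and Igfbp5 takes 22.5% to 25.1% and 28.0% to 31.2%.

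Markers of several cell types were also unequal between the groups. The 14 cartilage markers summed to 2500, 2493 and 1345 FPKM in controls and to 888, 707 and 885 FPKM in the libraries labelled mutant. Of those 14 markers 4 fell and 0 rose, where 11 fell and 69 rose among all 13180 tested genes (limma with Benjamini-Hochberg adjustment, threshold 0.05). Without control 3 the log2 difference of Igfbp2 was -0.69, and without control 2, the library with inner ear genes, it was -0.50 (limma with Benjamini-Hochberg adjustment, adjusted p = 0.22 and 0.379). Without control 2 the log2 differences were 0.28 for Igfbp5, 0.34 for Igfbp7, 0.13 for Igf2r and -0.16 for Igfbp4. Library 2 labelled mutant had the most of the neuronal gene Tubb3, at 59.2 FPKM. Without that library the log2 differences were -0.50 for Igfbp2, -0.17 for Igfbp4, 0.23 for Igfbp5, 0.38 for Igfbp7 and 0.17 for Igf2r. The 11 osteoclast markers summed to 639 to 714 FPKM in controls and 1690 to 1842 FPKM in the libraries labelled mutant, and the 10 macrophage markers to 359 to 408 and 452 to 477 FPKM. By the same test 9 of the 11 osteoclast markers and 2 of the 10 macrophage markers rose, and 0 of either list fell. The 13 osteoblast markers summed to 21362 to 23823 FPKM in controls and 22168 to 30208 FPKM in the libraries labelled mutant, sums that overlapped, while their mean log2(FPKM + 1) was 7.52 to 7.70 and 7.75 to 8.02, without overlap. Of these 13, 12 had a higher value, beside 50.5% of all tested genes, and 1 rose and 0 fell. In every library labelled mutant 7 of the 13 lay above all controls, beside 9.34% of all tested genes. Only 1 lay below them, beside 6.79%, and its log2 difference of -1.31 was the largest of the list, where the highest was 0.94. The 9 meningeal markers summed to 175, 641 and 598 FPKM in controls and to 381, 278 and 259 FPKM in the libraries labelled mutant. The part of these cell types in the values of Igfbp2, Igfbp5 and Igf2r was not tested.

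**Figure D4:**
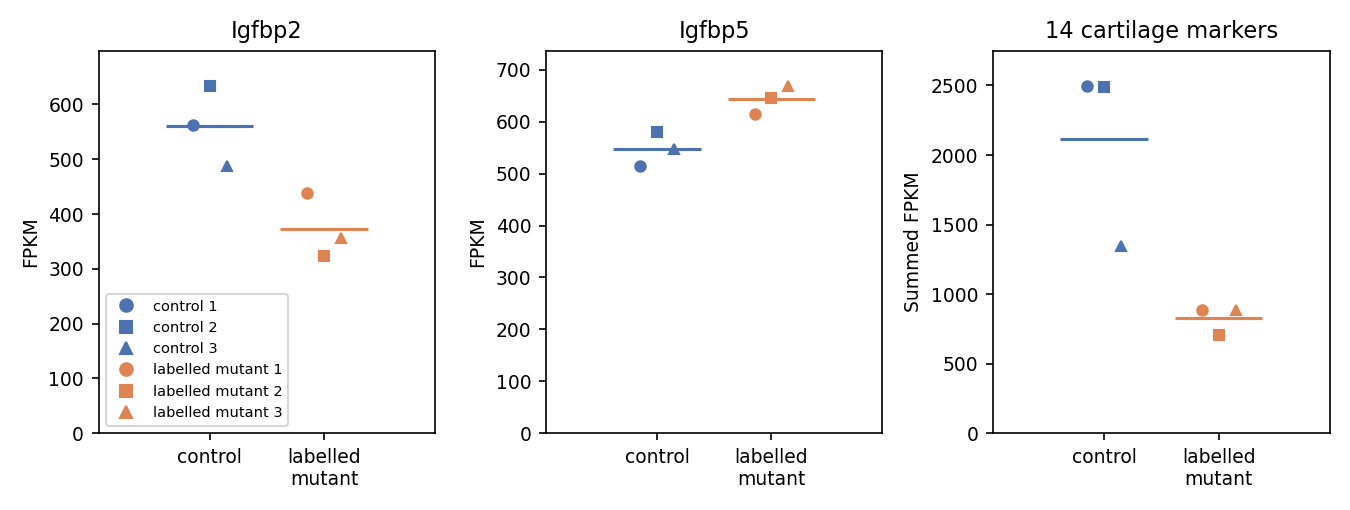
FPKM of Igfbp2 and Igfbp5 and the summed FPKM of 14 cartilage markers in each library, with lines at the group means and axes from 0. Igfbp2 and the cartilage sum are lower in every library labelled mutant than in any control (cartilage 707 to 888 against 1345 to 2500 FPKM), and Igfbp5 is higher.

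Genes that act on the binding proteins were examined from a list of 11, of which 7 were tested. None rose or fell (limma), and Pappa2 and Stc2 were the 2 with lower values at an unadjusted p under 0.05. That is 2 of 7, beside 10.5% of all tested genes in either direction. Pappa2, which encodes a pappalysin that cuts IGFBP5 and IGFBP3, had 5.65, 4.86 and 4.69 FPKM in controls, against 2.89, 2.52 and 3.52 FPKM in libraries labelled mutant. Its groups did not overlap, and its log2 difference was -0.61 ± 0.12 (SE; limma with Benjamini-Hochberg adjustment, adjusted p = 0.0985). Stc2, the gene of a stanniocalcin that inhibits pappalysins, had 5.39 ± 0.80 and 3.81 ± 0.63 FPKM (SD, n = 3 each). Htra1, a secreted protease with an IGFBP-type domain, had 182 ± 6.47 and 157 ± 22.0 FPKM, and the protease inhibitor gene Timp3 had 91.2 ± 1.85 and 86.7 ± 5.26 FPKM (SD, n = 3 each). Below the minimum for testing, Pappa had at most 1.22 FPKM in any library and Igfals, the third partner of the circulating complex, at most 1.04 FPKM. Igfbp1, the neighbour of Igfbp3, was listed at 0 in all 6 libraries. Of 7 genes with an IGFBP-type domain outside the family, Htra1 again among them, 6 were tested and 0 passed (0 also at an unadjusted p under 0.05 in limma), with Crim1 at 7.97 and 6.96, Igfbpl1 at 1.76 and 0.918, and Htra3 at 105 and 107 FPKM as group means.

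Of 15 tested imprinted and growth-related genes around Igf2, 0 passed the threshold. In limma 2 of the 15 had an unadjusted p under 0.05, beside 10.5% of all tested genes in either direction. These 2 were Cdkn1c, an imprinted brake on the cell cycle, at 316 ± 19.05 and 275 ± 10.4 FPKM (SD, n = 3 each), and H19. The imprinted noncoding gene Meg3 had 1473 ± 195 and 1256 ± 203 FPKM (SD, n = 3 each). The median log2 difference of the 15 was -0.030. The growth hormone axis, which controls Igf1 in many tissues, gave 0 of 6 (0 also at an unadjusted p under 0.05 in limma). The receptor gene Ghr had 21.6 ± 3.39 and 22.1 ± 0.34 FPKM (SD, n = 3 each), and the feedback gene Socs2 had 27.5 ± 0.61 and 27.5 ± 1.15 FPKM. Jak2, Stat5b and Cish had ratios of 1.07, 0.967 and 0.857.

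Downstream of the receptors, 0 of 30 tested genes of insulin and IGF signalling passed. At an unadjusted p under 0.05 in limma there were 2 of 30, both higher, beside 10.5% of all tested genes in either direction. Ptpn1, a phosphatase that acts on the insulin and IGF receptors, had 13.4, 15.1 and 13.2 FPKM in controls, against 18.0, 18.1 and 17.8 FPKM in libraries labelled mutant. Its log2 difference was 0.35 ± 0.066 (SE; limma with Benjamini-Hochberg adjustment, adjusted p = 0.0983). Pik3cb, a catalytic subunit of PI3 kinase, had 1.94 ± 0.18 and 2.67 ± 0.097 FPKM (SD, n = 3 each). The kinase gene Akt1 had 123 ± 7.11 and 120.4 ± 3.34 FPKM, the translation repressor gene Eif4ebp1 87.7 ± 13.5 and 88.8 ± 10.2, and Rheb, an activator of mTOR, 42.0 ± 1.66 and 39.1 ± 1.22 FPKM (SD, n = 3 each). The list had 18 values higher and 12 lower, with a median log2 difference of 0.020.

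FoxO factors, which AKT keeps out of the nucleus, and genes they are known to induce gave 0 of 14 past the threshold. In limma 1 of the 14 had an unadjusted p under 0.05, beside 10.5% of all tested genes in either direction. That 1 was Bcl6, a transcriptional repressor, at 2.798 ± 0.55 and 3.90 ± 0.58 FPKM (SD, n = 3 each). Txnip, an abundant member that restrains glucose uptake, had 283 ± 45.3 and 282 ± 3.10 FPKM (SD, n = 3 each), and Sesn3, Gadd45a and Pdk4 had ratios of 1.17, 1.24 and 0.778. The median log2 difference of the 14 was 0.13, with 11 values higher and 3 lower, where 50.5% of all tested genes were higher.

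The sorting system that Igf2r serves for lysosomal enzymes gave 0 of 11 past the threshold. In limma 1 of the 11 had an unadjusted p under 0.05, beside 10.5% of all tested genes in either direction. That 1 was Gnptab, whose enzyme adds the mannose 6-phosphate tag, at 10.2 ± 0.068 and 12.4 ± 1.07 FPKM (SD, n = 3 each; limma with Benjamini-Hochberg adjustment, adjusted p = 0.242). M6pr, the smaller mannose 6-phosphate receptor, had 39.5 ± 2.24 and 44.5 ± 2.90 FPKM, Gnptg, the regulatory subunit of the tagging enzyme, had 19.3 ± 2.71 and 22.4 ± 1.17 FPKM, and the sorting nexin gene Snx1 had 46.6 ± 3.27 and 46.8 ± 2.52 FPKM (SD, n = 3 each). All 11 values were higher, where 50.5% of all tested genes were higher, from 0.0060 (Snx1) to 0.25 (Gnptab) on the log2 scale. Their median was 0.067, and that of Snx1 turned negative when control 3 was left out (-0.045). Only 1 of the 11 had groups apart, above the controls, beside 9.34% of all tested genes.

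**Figure D5:**
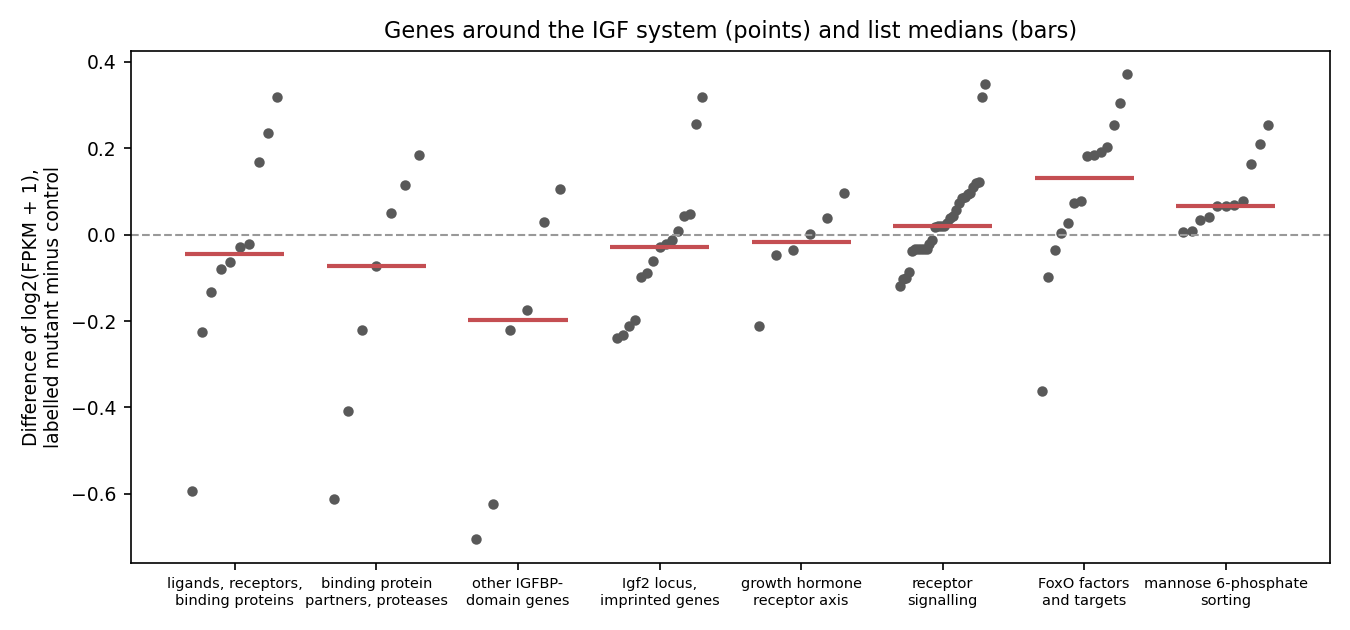
Difference of log2(FPKM + 1) between libraries labelled mutant and controls for each tested gene of the IGF system and of 7 lists around it (points, sorted within a list), with red bars at list medians. No point passed after adjustment over all genes, and medians run from -0.198 in the other IGFBP-domain genes to 0.131 in the FoxO list.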

How the data were processed

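Messenger RNA of whole newborn calvaria was sequenced in 6 libraries, grouped and numbered by their titles. The deposited values are FPKM for 24346 gene names in each library. Per the submitters' processing notes the authors used Cufflinks 2.2.1, TopHat2 2.0.13, SAMtools 0.1.19 and Bowtie2 2.2.3 with mm10. With options, annotation, strand use and totals of reads not given in the sources used here, the depth is unknown. Cufflinks divides shared fragments between genes by a model. Median-of-ratios factors ran from 1.002 to 1.003, while summed FPKM ran from 521168 to 559624. By the former measure the deposited values were already on a common scale across libraries. The step that did this is not given in the sources used here.

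The 13180 genes whose mean reached 1 FPKM were analysed on log2(FPKM + 1) in limma 3.58.1 (R 4.3.3; lmFit, eBayes with trend, group as the only term, two-sided, Benjamini-Hochberg adjustment at 0.05). The pseudocount of 1 understates differences of low genes. The fit was tested on simulated data, with independent normal noise for each gene and no differences of cell mix between libraries. Changes were made on FPKM + 1, so for low genes the change in FPKM itself was larger. The fit recovered 59.2% of genes changed 1.5-fold and 87% of those changed 2-fold on that scale. Of its calls 5.01% were false. Changes smaller than 1.5-fold were not simulated. The members and gene lists were chosen with earlier results of these data known. The text names all members and, in each list, genes past the threshold, the 3 of smallest p and the 2 most abundant. Gene positions come from GENCODE M21 (GRCm38, the assembly mm10 denotes). The alternatives were 14 chosen at the outset and a sex term added after the data were seen.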

Additional observations from a re-analysis of the deposited data

How the results depend on the processing

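The count of members past the threshold was 0 in all 15 alternatives. The count of all tested genes past it was 80, and 50 without the filter on low values, 25 with a replicate block, 43 with a sex term (chosen after seeing the data) and 16 to 44 with 1 library left out, lowest without library 1 labelled mutant. The cause was not tested. The members' smallest adjusted p was 0.142, for Igfbp2 with robust eBayes (0.142 to 0.379 over the alternatives). The differences of the 5 members with separate groups kept their sign in every alternative. Separate groups fix the sign when a library is left out or the pseudocount, filter, eBayes setting or block changes. For these alternatives the kept sign is therefore no check. Median-of-ratios scaling is no check either, since its factors of 1.002 to 1.003 left the values nearly unchanged. The log2 difference of Igfbp2 was -0.592 with and without it. With the replicate number as a block the log2 differences were as before and the adjusted p was 0.273 for Igfbp2 and 0.33 for Igfbp7. Nothing in the labels pairs equal numbers, and the deviations of same-numbered libraries from their group means correlated at 0.016, -0.071 and 0.015. Log2 differences near 0 changed sign when 1 library was left out: Igf1r (-0.10 to 0.019), Igfbp6 (-0.15 to 0.11), Htra3 (-0.027 to 0.089; -0.023 with the sex term), Socs2 (-0.029 to 0.028), Ghr (-0.074 to 0.14), Akt1 (-0.073 to 0.0088), Eif4ebp1 (-0.057 to 0.14), Txnip (-0.075 to 0.13; -0.010 with quantile normalization) and Snx1 (-0.045 to 0.055). The other 23 named list genes kept their sign. Depth is unknown, and with 3 libraries a group the 95% intervals of the members' log2 differences reached from -0.92 to 0.50.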

Other observations

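Genes whose pattern over the 6 libraries was most like that of Igf2, by Pearson's r of log2(FPKM + 1) and leaving out the other members, were Lmx1b (r = 0.99), Mex3c (0.988) and Gadd45b (0.984). For Igfbp2 they were Lin37 (0.994), Fzd9 (0.992) and Sertad3 (0.991). The Wnt receptor gene Fzd9 had 11.6, 14.5 and 8.50 FPKM in controls, against 7.04, 4.78 and 5.25 FPKM in libraries labelled mutant. These are across 6 libraries and describe them only, since 50 of the 13170 other tested genes exceeded an r of 0.95 with Igf2 and 47 with Igfbp2.

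Among genes of the lists below the minimum for testing, growth hormone itself (Gh), a pituitary product, was listed at 5.81 FPKM in library 2 labelled mutant, at 0.155 in library 1 labelled mutant and at 0 in the other 4 libraries. The neuronal gene Tubb3 was also highest in that library, at 59.2 FPKM, against 7.63 to 28.7 FPKM elsewhere. Insrr, a receptor gene related to Igf1r, had 0.424, 1.39 and 1.81 FPKM in controls, against 0.109, 0.245 and 0.151 FPKM in libraries labelled mutant.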
